A study of Homo sapiens with 3 samples.

Results

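The enzymes that write and erase methyl groups on histone lysines and on DNA were followed in HCT116 cells, a human colorectal carcinoma line, after knockdown of PRMT1. PRMT1 is an arginine methyltransferase that places asymmetric dimethylation on arginine 3 of histone H4. The set held 44 genes chosen by name. Of these, 24 were lysine methyltransferases or PRC2 subunits, 13 were listed as LSD or Jumonji demethylases, and 7 belonged to DNA methylation or demethylation. The set made up 44 of the 41749 gene names on the array. All 44 were found, with 81 probes, and 43 lay above background on all 3 arrays. The remaining one, KDM5A, a demethylase of histone H3K4, was not well above background on any array, so it has only an upper bound.

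RNA from 3 samples of HCT116 cells was hybridised to 1-colour Agilent SurePrint G3 arrays, with 1 array per group. The groups were a negative control labelled PRMT1-NC and the knockdowns PRMT1-KD1 and PRMT1-KD2, written NC, KD1 and KD2. All were HCT116 cells grown in the same medium, and they carried no further alteration that the labels name. Knockdowns of SMARCA4, which the study also made, were not analysed here. The labels describe small interfering RNAs introduced by lipid transfection, as do the study's methods, whereas its results speak of short hairpin RNAs. The methods also name a second negative control, which was not analysed here, so every difference rests on 1 NC array. Which RNA served for which knockdown is not given in the sources used here, nor is the strand that each letter string stands for. The sequences are shown because they define the perturbation.
PRMT1 siRNA-1: cugaaguccaggucgauggugaaguc
PRMT1 siRNA-2: uuguagucuuuguacugcc

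Histone lysine methyltransferases transfer a methyl group from S-adenosylmethionine to lysines of histone H3 or H4, and the outcome depends on the residue. Methylation of lysine 4 of H3 (H3K4) and of H3K36 marks active promoters and transcribed bodies, whereas that of H3K9 and H3K27 marks silent chromatin. Demethylases of the LSD and Jumonji (JmjC) families remove these groups. In DNA, DNMT3A and DNMT3B set methylation at CpG sites, DNMT1 with UHRF1 copies it after replication, and the TET dioxygenases oxidise it.

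Signals are given as log2 intensity minus the array's 75th percentile, so that 0 stands for that percentile. A gene was represented by its brightest probe, and a level is compared only between arrays, never between genes. With 1 array per group there was no replicate spread and no test for any single difference between 2 arrays. Every difference describes these arrays, and is called past 1.5-fold, or 0.585 on the log2 scale. How far KD1 and KD2 lay from each other served as a yardstick. Its robust SD was 0.38 on the log2 scale, taken over the 17054 genes detected on every array. In bulk RNA, fewer cells expressing a gene and less RNA per cell cannot be told apart.

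The targeted gene followed the labels. PRMT1 gave 6.03 in NC, 2.75 in KD1 and 1.48 in KD2, which left 10.3% and 4.26% of the control signal. Between 40.7% and 42.3% of probes were above background on each array. The arrays shared 1 slide and 1 scan, so neither separates the groups. Of 10 colorectal epithelial markers, 7 were above background on all arrays, EPCAM and KRT19 among them, whereas VIL1 and CEACAM5 were above it on none. Of 9 markers of other cell types on the array, 4 were above background on all arrays (COL1A1, CDH5, ACTA2 and DES), whereas CD3E, PECAM1 and COL3A1 were above it on none. Of those 4, CDH5 and ACTA2 were higher and DES lower past 1.5-fold in KD1, with changes of 1.46, 0.79 and -0.69, and COL1A1 was higher by 0.62 in KD2. Of the epithelial markers KRT8 had -0.89 in KD1, and CDH1 was higher in both, by 0.94 and 0.76. Of 17 proliferation genes, 4 were lower and 2 higher past 1.5-fold in KD1, and 6 lower and 1 higher in KD2, with a median change of -0.29 and -0.26. Over all genes measured, 14% were lower in KD1 and 10.6% in KD2. Among them MKI67, a marker of cycling cells, was lower by 0.98 in KD1, and RRM2, a ribonucleotide reductase subunit, was higher by 1.07. The part of these markers and proliferation genes in the results was not tested.

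The members showed no common direction. In KD1, 4 members were lower and 11 higher past 1.5-fold, which is 9.30% and 25.6% of the 43 measured. Over all 19231 genes measured in that comparison, 14% were lower and 12.4% higher. In KD2, 5 members were lower (11.6%) and 4 higher (9.30%), near the 10.6% and 9.68% of all 19421 genes. Over the 17054 genes detected on every array, as the 43 members were, 12% were lower and 11.6% higher in KD1. In KD2 those shares were 9.58% and 8.35%. The KD2 split moved with the scaling, to 5 lower and 7 higher with the percentile taken over detected probes (8.78% and 11.4% of all genes), and to 5 and 6 after quantile normalization (10.1% and 10.2%). The median change over the members was 0.10 in KD1 and 0.07 in KD2, against -0.07 and -0.05 over all genes measured. Both comparisons used the same NC array, so a deviation of that array enters both. In both knockdowns, 2 members were lower (4.65% of those measured, with 5.62% of all genes) and 4 were higher (9.30%, with 4.87% of all genes). No member was past 1.5-fold in opposite directions in the knockdowns. The same count was not taken over all genes, so it does not set the members apart.

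Scaling to the E1A spike-in probes shifted the median of all detected genes to 0.56 in KD1 and 0.20 in KD2. On that scale 0 members were lower and 29 higher in KD1, and 2 lower and 14 higher in KD2. Of all genes, 1.99% were then lower and 47.8% higher in KD1, and 3.95% and 21.3% in KD2. The directions below are therefore relative to the bulk of the probes on each array. On the spike-in scale each member's change sits 0.63 higher in KD1 and 0.27 higher in KD2.

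**Figure D1:**
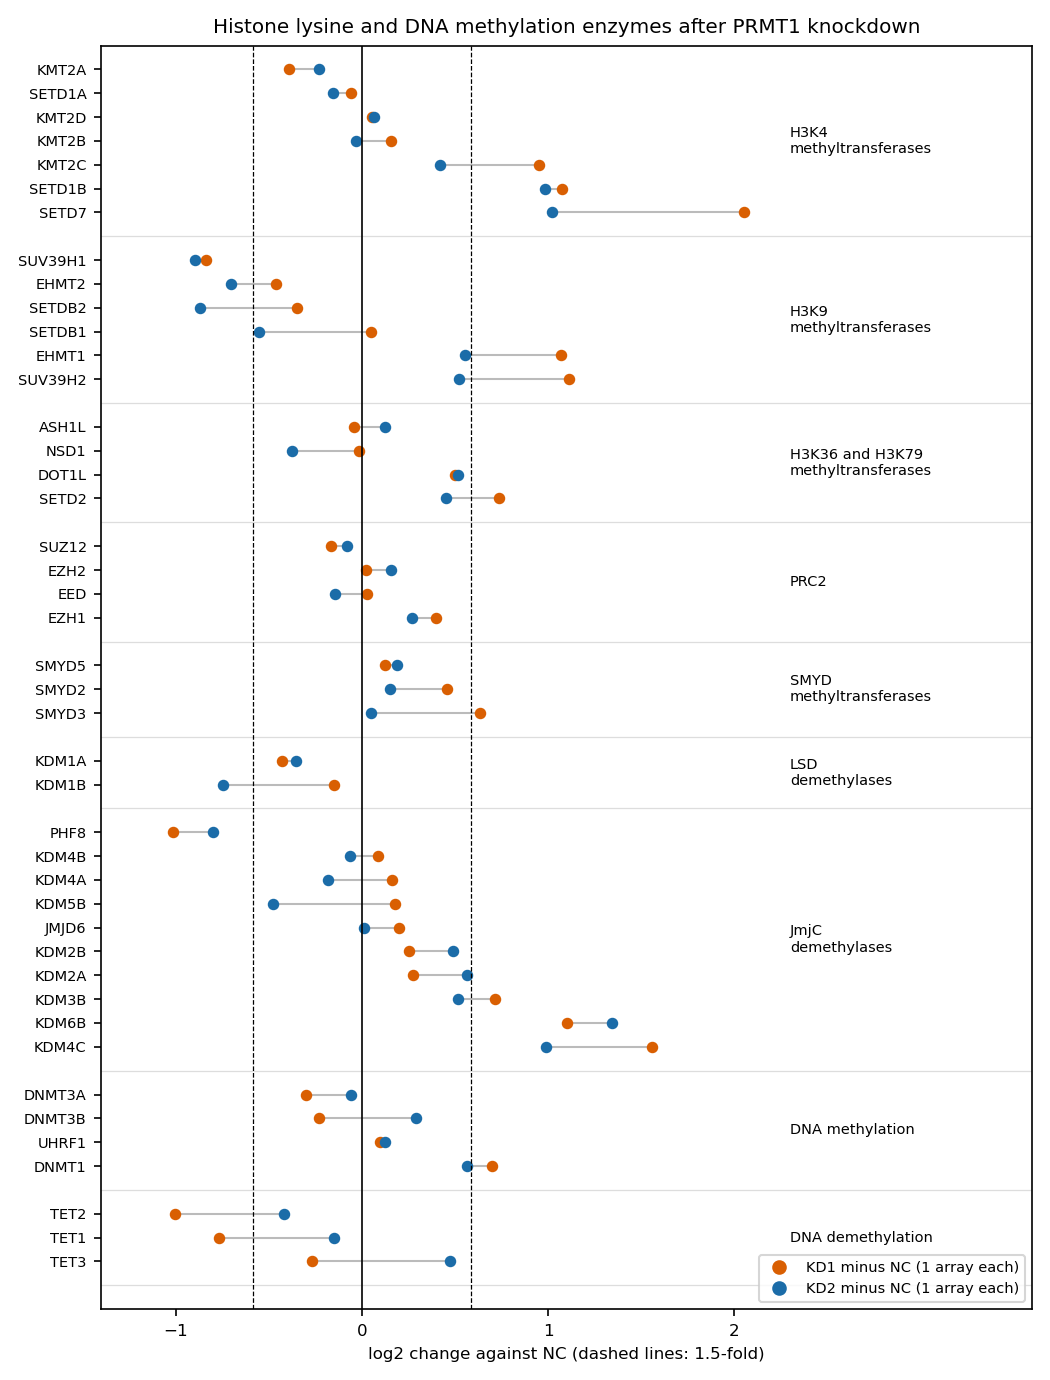
Log2 change against NC of the 43 measured members, in KD1 (orange) and KD2 (blue), by role; each point is 1 array minus the NC array and the dashed lines mark 1.5-fold. SETD7, SETD1B, KDM4C and KDM6B lie beyond the right line in both knockdowns, and SUV39H1 and PHF8 beyond the left line.

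The members higher in both knockdowns were 2 methyltransferases and 2 demethylases. SETD7, which monomethylates H3K4 and several non-histone proteins, had -0.90 in NC, 1.15 in KD1 and 0.12 in KD2. It was thus 4.14-fold higher in KD1 and 2.03-fold higher in KD2, and stood 41st from the top of 19231 genes in KD1. KDM4C, a JmjC demethylase of H3K9 and H3K36, had 0.56 in NC, 2.12 in KD1 and 1.55 in KD2, a difference of 2.95-fold and 1.99-fold that was seen at 1 of its 3 detected probes. Both genes were higher in KD1 than in KD2. KDM6B, which removes methyl groups from H3K27, had -0.51, 0.59 and 0.84 on the NC, KD1 and KD2 arrays. This put it 2.14-fold above NC in KD1 and 2.54-fold in KD2, and KD2 was here the higher of the knockdowns. SETD1B, a catalytic subunit of a COMPASS complex for H3K4, had -2.16, -1.09 and -1.18. Its level in NC was close to the lowest signal counted as above background there, -2.69, and it was 2.10-fold and 1.98-fold higher in KD1 and KD2. With normexp background correction SETD1B had changes of 0.28 and 0.24, inside 1.5-fold, and SETD7 had 0.58 in KD2, also inside it.

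SUV39H1 and PHF8 were the members lower in both knockdowns. SUV39H1, which trimethylates H3K9 in pericentric heterochromatin, had 2.58 in NC, 1.74 in KD1 and 1.68 in KD2. The knockdowns kept 56.0% and 53.8% of the control signal. PHF8, a JmjC demethylase of mono- and dimethylated H3K9, had 2.44, 1.43 and 1.64, or 49.5% and 57.5% of the control. For these members the KD1 and KD2 arrays lay on the same side of NC and, for SUV39H1, differed from each other by 0.06. A writer and an eraser of H3K9 methylation were thus lower side by side, while another eraser, KDM4C, was higher at the probe that represents it. The other KDM4C probes detected on all arrays lay inside 1.5-fold.

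**Figure D2:**
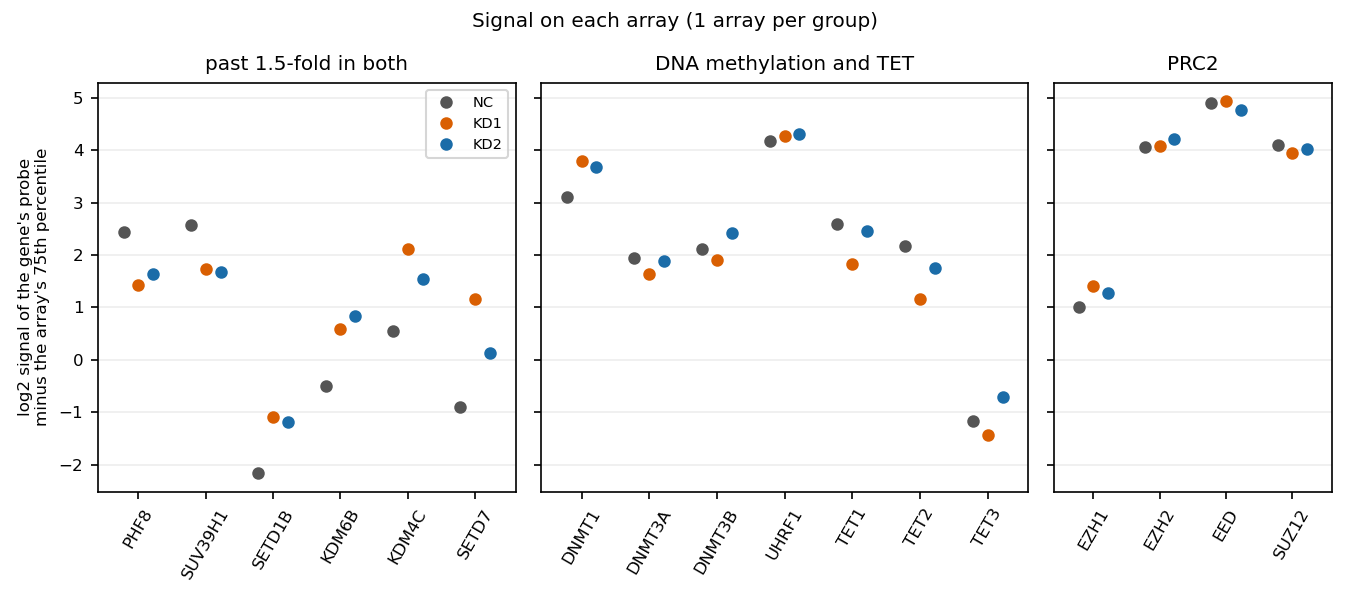
Normalized log2 signal of single genes on the NC (grey), KD1 (orange) and KD2 (blue) arrays, 1 array each, for the 6 members past 1.5-fold in both knockdowns, the DNA methylation and TET genes, and the PRC2 subunits. Heights compare arrays within a gene only; TET1 and TET2 have their lowest point in KD1, while the points of EZH2, EED and SUZ12 nearly coincide.

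The RefSeq promoter table (GRCh38.p14) held 41 of the 44 members, with 67 transcription starts; SETD1B, JMJD6 and DOT1L had no entry. The 150 bases upstream of the start are shown for the members that moved together in both knockdowns, taking for each the start whose stretch had the highest GC content. Capitals mark a CCAAT box (CCAAT), a GC box (GGGCGG) or a cAMP response element (TGACGTCA) on either strand.
SUV39H1 (chrX:48696584-48696733, plus strand): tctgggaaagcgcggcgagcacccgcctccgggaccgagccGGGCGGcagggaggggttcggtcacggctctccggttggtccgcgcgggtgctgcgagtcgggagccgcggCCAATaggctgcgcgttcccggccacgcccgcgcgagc
PHF8 (chrX:54044474-54044623, minus strand): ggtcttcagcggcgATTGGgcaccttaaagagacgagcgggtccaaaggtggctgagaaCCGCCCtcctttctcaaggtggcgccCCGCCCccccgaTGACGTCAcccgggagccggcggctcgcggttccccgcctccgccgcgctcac
SETD7 (chr4:139556220-139556369, minus strand): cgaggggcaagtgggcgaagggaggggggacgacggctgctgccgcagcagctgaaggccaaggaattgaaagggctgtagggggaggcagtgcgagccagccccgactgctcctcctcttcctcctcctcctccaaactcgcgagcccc
KDM4C (chr9:6757823-6757972, plus strand): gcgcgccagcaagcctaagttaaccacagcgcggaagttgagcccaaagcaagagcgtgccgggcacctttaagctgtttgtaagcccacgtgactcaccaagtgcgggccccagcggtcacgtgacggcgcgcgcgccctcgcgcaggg
KDM6B (chr17:7834067-7834216, plus strand): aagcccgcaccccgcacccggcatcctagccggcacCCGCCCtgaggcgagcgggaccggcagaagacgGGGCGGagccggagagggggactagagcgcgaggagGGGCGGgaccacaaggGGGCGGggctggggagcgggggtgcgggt
The stretches of SETD7 and KDM4C held none of these letter strings, and neither did any of the 5 hold the E2F strings TTTCCCGC or TTTGGCGC. In the stretches shown, both genes that were lower had a CCAAT box and a GC box, and PHF8 also a cAMP response element. KDM6B had 4 GC boxes. Picking the start by GC content favours the GC box, and the stretches at the other starts of SUV39H1, PHF8 and KDM6B held none of these strings. In windows of 300 bases around the start, the GC box stood in 47 of the 67 member promoters (70.1%), against 45.0% of all 35116 promoters. The CCAAT box stood in 32.8% of member promoters and 34.6% of all, and the response element in 2.99% and 1.85%. The first E2F string was in 3 member promoters (4.48%, 1.63% of all), those of KDM1B, SUZ12 and UHRF1, and the second in 1, that of EZH2 (1.49%, 0.652% of all). No string contains another, so the motifs can overlap only at their ends, and a match is a description of letters only.

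Among the 7 H3K4 methyltransferases, 3 were higher in KD1 past 1.5-fold and none lower, where 12.4% and 14% of all genes were. Besides SETD7 and SETD1B this was KMT2C, a catalytic subunit of the enhancer-associated complex, at 0.95 in KD1 and 0.42 in KD2 at 1 of its 2 probes. KMT2A, the founding MLL protein, had changes of -0.39 and -0.23. KMT2B, KMT2D and SETD1A lay between -0.15 and 0.15 in both knockdowns, which is inside the KD1 to KD2 yardstick. Of 11 listed subunits and partners of COMPASS complexes, 1 was lower and 2 higher in KD1, and none passed 1.5-fold in KD2. For 1 of the higher genes NC was not above background, so its change is a lower bound. Of all genes measured, 12.4% were higher and 14% lower in KD1, and 9.68% and 10.6% in KD2. The counts for the lists below stand beside these shares.

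The 6 H3K9 methyltransferases split. SUV39H2, the paralog of SUV39H1, went the other way at 1.11 in KD1 and 0.52 in KD2, with levels of 1.29, 2.40 and 1.81 on NC, KD1 and KD2. At the representing probes a like split separated EHMT1 and EHMT2, the partners that dimethylate H3K9 together. EHMT1 had 1.07 in KD1 and 0.55 in KD2 at its 3′-most probe, while its other detected probes gave 0.09 and 0.18 in KD1. EHMT2 had -0.46 and -0.70 at its only probe, which has 55% GC. Probes of 50% to 60% GC had a median change of -0.26 in KD1 and -0.14 in KD2. SETDB2 was lower in KD2 at -0.87, with -0.35 in KD1. SETDB1, which acts with the corepressor TRIM28 at retroelements, had 5.10 in NC, 5.14 in KD1 and 4.55 in KD2, so that KD2 lay below the other arrays at this probe. Its other detected probes had smaller differences between the knockdowns. They read -0.87, -1.25 and -1.35, and 0.69, 0.69 and 0.46, on NC, KD1 and KD2. TRIM28 itself, no member, was lower by 1.16 and 0.92 and was the only one of 8 H3K9 readers and cofactors past 1.5-fold in either knockdown. At the representing probes all 6 of these methyltransferases were higher in KD1 than in KD2, by 0.06 to 0.60. The differences of SUV39H1 (0.06) and EHMT2 (0.24) lay inside the KD1 to KD2 yardstick, and the order for SUV39H1 can turn with the scaling. It was reversed at the second SUV39H1 probe, which had -1.33 in KD1 and -1.28 in KD2.

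Of the 4 methyltransferases of H3K36 and H3K79, 1 was past 1.5-fold in KD1 and none in KD2. SETD2, which trimethylates H3K36 on transcribed genes, was higher in KD1 at 0.74, with 0.45 in KD2, and had 0.39 in KD1 with normexp, inside 1.5-fold. DOT1L, which methylates H3K79, had 0.50 and 0.52, just inside 1.5-fold both times, while its other detected probes gave -0.54 and 0.02 in KD1. NSD1 and ASH1L lay between -0.38 and 0.12. Of the SMYD family, SMYD3 was higher in KD1 at 0.63 (another probe gave the opposite sign), with 0.05 in KD2, SMYD2 had 0.46 and 0.15, and SMYD5 had 0.13 and 0.19. Among 13 other lysine methyltransferases, 3 in KD1 and 1 in KD2 were higher (12.4% and 9.68% of all genes) and none lower (14% and 10.6%). PRDM2, an H3K9 methyltransferase, was past 1.5-fold in both, at 0.76 and 0.64.

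PRC2, the complex that methylates H3K27, stayed inside 1.5-fold in all 4 subunits. EZH2, its main catalytic subunit, had 4.05 in NC, 4.08 in KD1 and 4.21 in KD2. EED, which binds the methylated lysine, had 4.91, 4.94 and 4.77. SUZ12, a core scaffold, had 4.11, 3.94 and 4.02. These 3 genes changed by no more than 0.16 in either direction, less than the spread between the knockdowns. EZH1, the alternative catalytic subunit, had 1.01, 1.41 and 1.28, or changes of 0.40 and 0.27. Of 7 accessory subunits, AEBP2 was higher in both knockdowns, by 1.08 and 0.83. Of 18 PRC1 subunits, 1 was higher in KD1, and 2 were lower and 1 higher in KD2.

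The 12 measured members listed as demethylases were no more uniform. The LSD enzymes lay below NC: KDM1A had -0.43 and -0.35, and KDM1B had -1.41 in NC, -1.56 in KD1 and -2.16 in KD2, lower past 1.5-fold in KD2. With normexp its KD2 change was -0.27, and its signal lay near background. Among the JmjC enzymes, KDM3B, which removes methyl groups from H3K9, was higher in KD1 at 0.71, with 0.52 in KD2. KDM2A had 0.27 and 0.56, and KDM2B 0.25 and 0.49. KDM4A, KDM4B and JMJD6 lay between -0.18 and 0.20. KDM5B, an H3K4 demethylase, had 3.10, 3.28 and 2.62, so that KD1 and KD2 lay on either side of NC. Among 8 measured demethylases outside the set, 3 in KD1 and 2 in KD2 were higher (12.4% and 9.68% of all genes) and none lower (14% and 10.6%). KDM7A, a relative of PHF8, was higher by 1.84 and 1.14 while PHF8 was lower, and KDM3A was higher by 1.09 and 0.89.

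**Figure D3:**
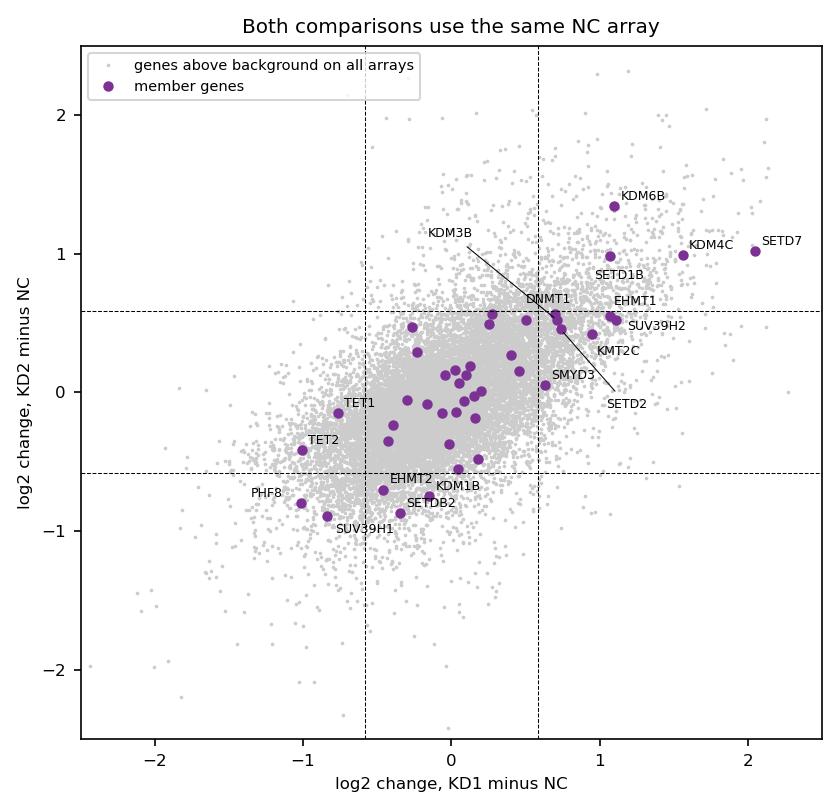
Log2 change in KD1 (horizontal) against that in KD2 (vertical) for 17054 genes above background on all arrays (grey) and the 43 members (purple), with members past 1.5-fold (dashed lines) in either knockdown named; 3 genes lie beyond the axes. Both axes share the NC array, so a deviation of that array moves points along the diagonal. No member lies in the upper left or lower right corner, and the other genes there were not counted.

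Of the DNA methylation group, the maintenance enzyme alone was past 1.5-fold, and that in KD1. DNMT1 had 3.10 in NC, 3.80 in KD1 and 3.67 in KD2, and so was 1.62-fold higher in KD1 and 1.48-fold higher in KD2. Its probe had a GC content of 23.3%, the lowest of all members, and with the median of its GC class subtracted its KD1 change was 0.39. UHRF1, which recruits DNMT1 to hemimethylated DNA, had 4.18, 4.27 and 4.30. DNMT3A had 1.94, 1.65 and 1.89, and DNMT3B had 2.12, 1.90 and 2.41. At these probes every change lay between -0.30 and 0.29, within the yardstick. Another detected probe of UHRF1 gave -0.57 in KD1, and another of DNMT3A gave 0.40 there, each opposite in sign to the representing probe. Of 9 measured methyl-CpG readers and cofactors, 1 was lower and 2 higher in KD1, and 1 lower and 1 higher in KD2. TDG, the glycosylase that excises oxidised methylcytosine, was higher in both, by 0.86 and 0.85.

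The TET genes, which start the removal of DNA methylation, differed between the knockdowns. TET1 had 2.60 in NC, 1.84 in KD1 and 2.45 in KD2, so that KD1 kept 58.9% and KD2 90.2% of the control. TET2 had 2.18, 1.17 and 1.76, or 49.8% and 74.9%, at the probe that represents it, while its other detected probes went the opposite way. TET3 had -1.17, -1.44 and -0.70, a change of -0.27 in KD1 and 0.47 in KD2. At the representing probes all 3 were lower in KD1 than in KD2, by 0.62, 0.59 and 0.74. For TET2 this order was clear at that probe alone: levels at the next probe were -0.79 in KD1 and -0.77 in KD2, and at the 3′-most probe 0.0021 and -0.41. Over all members, 8 of 43 (18.6%) differed past 1.5-fold between the knockdowns, against 18.6% of all 19544 genes. The other 5 were higher in KD1 at their representing probes: SETD7 by 1.03, KDM5B by 0.66, KDM1B and SETDB1 by 0.60, and SUV39H2 by 0.59. For SETDB1 the other detected probes differed less between the knockdowns. The 43 members were detected on every array. Over the 17054 genes for which that holds, 6.97% were lower and 8.07% higher past 1.5-fold in KD1 than in KD2.

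A fit across all genes put both knockdown arrays against the lone NC array with limma, which assumes that NC varies as the knockdown arrays do. The fit treats KD1 and KD2 as repeats of a single condition. Its error thus comes from the difference between the knockdowns and is not replicate error. At a Benjamini-Hochberg adjusted p under 0.05 it called 83 of 20050 genes (0.414%) and 0 of the 43 members. The lowest limma adjusted p of a member was 0.311, for KDM6B, at a log2 change of 1.22 with an SE of 0.33. At an unadjusted p under 0.05 it took 1629 genes (8.12%) and 7 members (16.3%): KDM6B, KDM4C, SETD7, SETD1B, EHMT1, PHF8 and SUV39H1. With an intensity trend in the variance 1 member, SETD7, passed at an adjusted p of 0.0483, and 258 genes in all. When KD1 or KD2 in turn was treated as the lone array, no member passed after adjustment.

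The probes of a member often gave different answers. Of the members, 24 had several probes and 18 had at least 2 above background on all arrays. In KD1 the changes of these probes differed in sign in 11 of the 18 and spanned more than 1.5-fold in 8. In KD2 they did so in 10 and 3. The same counts were not taken over all genes with several probes, so they do not set the members apart from other genes. In KD1, TET2 and SMYD3 had probes past 1.5-fold on opposite sides. The first 30 of the 60 bases of these probes are shown with their hg19 positions, in order along the gene, since the call depends on which one is read; whether each lies in coding sequence or in a UTR was not determined here. Probes of KDM4C and KMT2C are added as the other members with the widest range.
TET2 5′-most probe (chr4:106193920-106193979, plus strand): tcaagacttgccgacaaaggaaactagaag
TET2 middle probe (chr4:106199618-106199677, plus strand): acttcaacctttttgttctaaaaattcagg
TET2 3′-most probe (chr4:106200570-106200629, plus strand): ttgctaatataggaatatcaggttgactat
SMYD3 5′-most probe (chr1:246490544-246490603, minus strand): tcaggcaactcgtaatgacatttcaacatt
SMYD3 3′-most probe (chr1:245912797-245912856, minus strand): agtcagagggaaatacggcgtgtgtctttg
KDM4C 5′-most probe (chr9:6720906-6720965, plus strand): tggagtgttctgcattcatgtggaagaggc
KDM4C middle probe (chr9:7077209-7077268, plus strand): gcattcaagatgcaacacctacaatatggt
KDM4C 3′-most probe (chr9:7175334-7175393, plus strand): tgggaactgagttgttggcctttgtgaaat
KMT2C 5′-most probe (chr7:151921100-151921158, minus strand): gtctgctattgaaactatagagaagaagat
KMT2C 3′-most probe (chr7:151832030-151832089, minus strand): cagagtgttatgggttttggaatttgtgga
The TET2 values above came from its 5′-most detected probe, at -1.01 in KD1 and -0.42 in KD2. Its other detected probes gave 0.41 and 0.43 (middle) and 0.86 and 0.45 (3′-most), so the direction for TET2 rests on the probe. For SMYD3 the 3′-most probe gave 0.63 in KD1 and the 5′-most -0.61. KDM4C was past 1.5-fold at its 3′-most probe, whereas the middle probe gave -0.33 and -0.03 and the 5′-most 0.12 and -0.11. KMT2C had 0.95 in KD1 at the 3′-most probe and -0.32 at the other. EHMT1 had 1.07 at the 3′-most probe and 0.09 and 0.18 at the others.

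PHF8, SUV39H1 and SETD7 in both knockdowns, and KDM1B and SETDB2 in KD2, kept their direction at each detected probe. Both PHF8 probes were lower past 1.5-fold in both knockdowns, the second by 0.87 and 0.59. The second SUV39H1 probe had -0.46 and -0.41, the same direction but inside 1.5-fold. A second SETD7 probe was not well above background in NC and was higher by at least 2.59 on the log2 scale in KD1 and 1.94 in KD2. Both KDM1B probes were lower in KD2, at -0.75 and, for a signal at the lowest level counted as above background there, -0.84, as were both SETDB2 probes, at -0.87 and -0.65. The second probe of SETD1B was above background on no array, KDM6B, SUV39H2, KDM3B and DNMT1 had a single probe each, and the other probes of TET1 and TET3 were not above background.

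**Figure D4:**
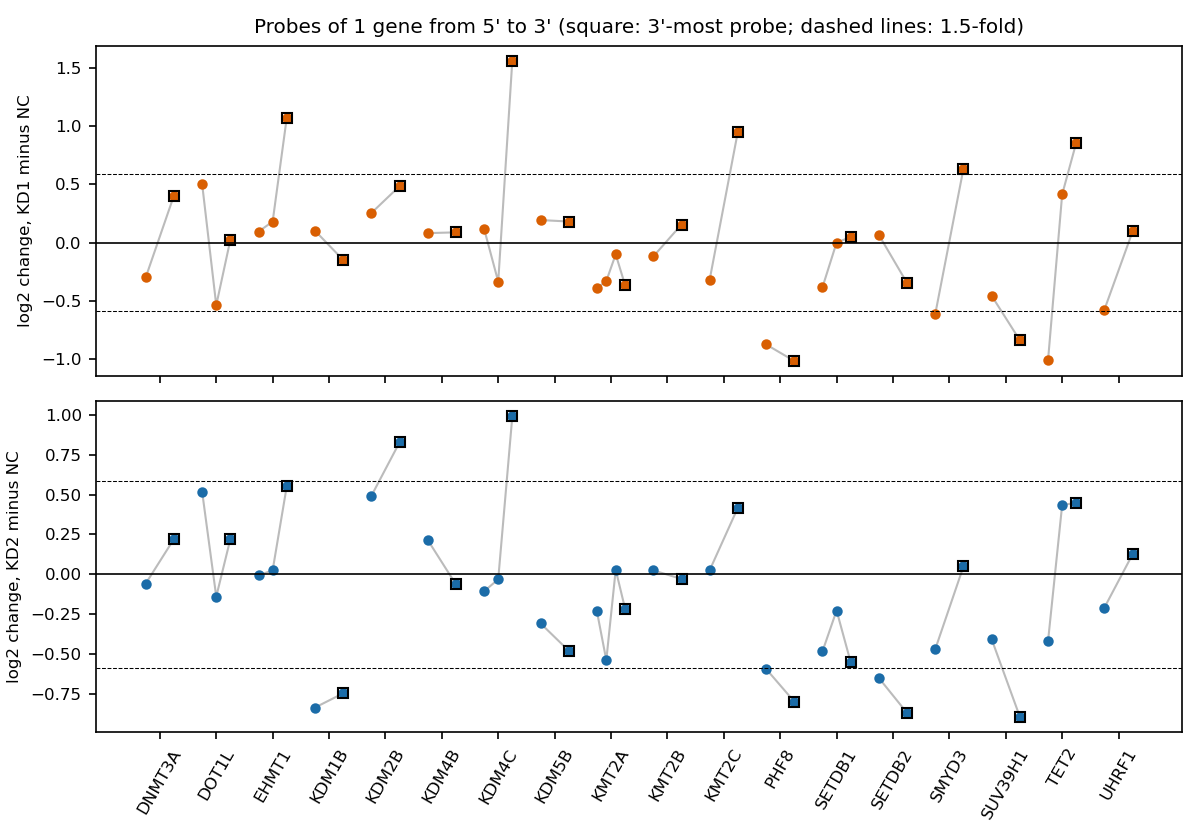
Log2 change against NC at each probe above background on all arrays for the 18 members with at least 2 such probes, ordered from 5′ to 3′ within a gene, in KD1 (top) and KD2 (bottom); squares mark the 3′-most probe and dashed lines 1.5-fold. In KD1 the 3′-most probes of EHMT1, KDM4C, KMT2C, SMYD3 and TET2 lie far above their upstream probes, while the PHF8 and SUV39H1 probes lie below 0.

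Other genes on the array differed along their length too. Over 3364 genes with detected probes at least 500 bases apart, the 3′-most probe exceeded the 5′-most by a median of 0.18 in KD1 and 0.03 in KD2, and did so in 63.3% and 53.9% of genes. Among the 17 members in that count the medians were 0.27 and 0.02, with 11 and 9 of them above 0. The change also moved with the base composition of the probe. Probes under 30% GC had a median change of 0.31 in KD1 and 0.19 in KD2, and those of 60% GC or more -0.44 and -0.18. The 43 member probes had a median GC content of 41.7%, between 23.3% and 55%, against 45% for all detected genes. With the median of each GC class subtracted, SUV39H1, whose probe has 55% GC, was at -0.57 in KD1, inside 1.5-fold, whereas PHF8, SETD1B, SETD7, KDM4C and KDM6B stayed past it in both knockdowns. The part of probe position and GC content in the results was not tested beyond these values.

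**Figure D5:**
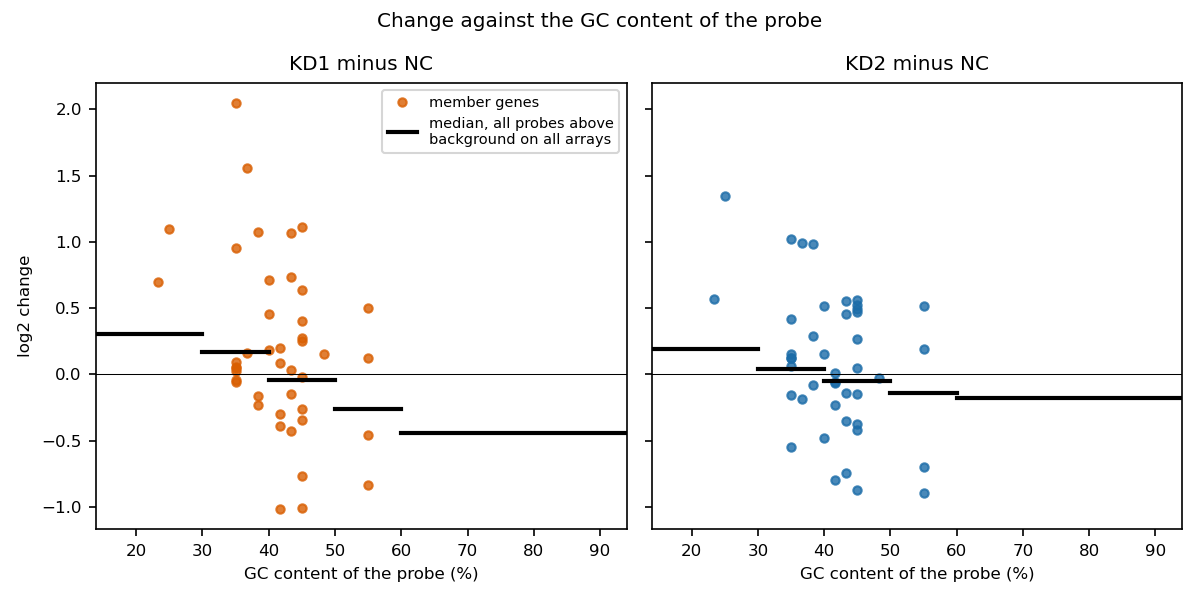
Log2 change against NC of the 43 members by the GC content of their probe, in KD1 (left) and KD2 (right); the black bars are the medians of all probes above background on all arrays in each GC class, the end classes being under 30% and 60% or more. The bars descend from 0.31 to -0.44 in KD1 and from 0.19 to -0.18 in KD2, and the members scatter around them.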

How the data were processed

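Expression was measured on 3 one-colour Agilent SurePrint G3 Human arrays of HCT116 RNA (NC, KD1, KD2), with 1 array per group (the study's methods name a second control, not analysed here), so no replicate error exists and the number of arrays limits the precision. The authors deposited the scanner output, in which Agilent Feature Extraction 10.7.1.1 had turned each spot into a background-corrected fluorescence intensity that was not scaled between arrays, per the file headers. Probe positions refer to hg19. The deposited series matrix held the mean processed intensity of each probe and was an alternative.

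Control spots were left out, and so were spots that the software marked non-uniform (5 to 141 per array) or outliers among repeats (61 to 82), which removed 130 probes. The log2 intensity was averaged over the spots of a probe and each array's 75th percentile was subtracted. Each gene took the probe brightest on average across NC, KD1 and KD2, which had to be well above background on at least 1 array compared; a value below background was raised to the lowest signal counted as above it on that array. Spots of 1 probe had a median SD between 0.04 and 0.05 on the log2 scale. Calls used the 1.5-fold threshold of the study's methods, whose p-value needs replicate arrays. Python 3.11.15, R 4.3.3 and limma 3.58.1 were used. The counting past the fold and the limma fit were tested on simulated data with less noise than the spread between KD1 and KD2. Scaling and probe choice were not simulated. All fits and shares were taken over all genes.

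Alternatives were normexp background correction with an offset of 50, quantile, median, detected-probe and spike-in scaling, the series matrix, filters, the mean over probes, a fold of 2, and, chosen after seeing the data, a GC-class correction. Members, lists, motifs and named genes were chosen with earlier results of these data known. Per-array values were given for members past 1.5-fold in both knockdowns, those differing most between KD1 and KD2, and the DNA methylation, TET and PRC2 genes; other members were given by range and count with up to 4 examples per role.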

Additional observations from a re-analysis of the deposited data

Results flagged for a closer look

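At probes other than the ones that represent a gene, 3 probes stood above background in a knockdown and not in NC, and 3 of their signals were past 1.5-fold. The second SETD7 probe was higher than NC by at least 2.59 on the log2 scale in KD1 and by at least 1.94 in KD2, the same direction as its representative probe. A KDM4C probe between the 5′-most and middle ones was higher by at least 0.60 in KD2 and was not above background in KD1. The DNMT3A probe was inside 1.5-fold, higher by at least 0.42 in KD1 and 0.46 in KD2. No group held enough arrays for a search for outlying samples. No member was past 1.5-fold in opposite directions in the knockdowns, a count that was not taken over all genes.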

How the results depend on the processing

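The counts of members past 1.5-fold moved most with the scaling. Scaled to spike-in probes, where 47.8% of all genes were higher in KD1 and 21.3% in KD2, 0 members were lower and 29 higher in KD1, 2 and 14 in KD2, and 0 and 13 in both, with median changes of 0.73 and 0.33 and 15 members apart between the knockdowns. Median scaling gave median changes of 0.21 in KD1 and -0.088 in KD2. With the percentile over detected probes, 7 members were higher in KD2, the KD2 median was 0.12 and 5 members lay apart between the knockdowns. With normexp, 3 members were lower and 2 higher in KD2, where 5.01% and 4.10% of all genes were. With it 2 members were higher in both, the KD1 median was 0.19 and 5 lay apart. SETD1B lost its call in both, SETD2 and TET1 in KD1, and SETD7, KDM1B and EHMT2 in KD2. With the mean over probes, 6 members were higher in KD1, 2 in KD2 and 2 in both. Of all genes, 11.4% were then higher in KD1 and 9.41% in KD2. SETD1B in KD1 turned to -0.49 and TET2 to 0.15. The second SETD1B probe was above background on no array, and the TET2 probes disagree. At 2-fold, 2 members were lower and 6 higher in KD1, where 3.57% and 4.19% of all genes were. In KD2 it was 0 and 2 members, with 2.48% and 2.89% of all genes. In both knockdowns 0 were lower and 2 higher (SETD7 and KDM6B), and 1 lay apart. With the GC-class correction, 7 members were higher in KD2 (10.8% of all genes) and 1, PHF8, was lower in both. The intensity trend in limma gave 1 member. For the other moves the cause was not tested.

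The members past 1.5-fold under all 11 alternatives (the 2-fold threshold aside) were SETD7, SUV39H2, KDM3B and KDM6B in KD1, and SETDB2, SUV39H1 and KDM6B in KD2. No paired analysis was possible because each group had 1 array and the labels carry no replicate numbers; leaving out a replicate was likewise not possible, and KD1 or KD2 as the lone array left limma at 0 members. Weak signals such as SETD1B, KDM1B and TET3, and KDM5A, which was not above background, are limited by the distance to background.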
